A study of Homo sapiens with 8 samples.

Results

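Collagen chain genes are the protein-coding genes whose symbol is COL, a number, A and a number, each of which encodes 1 chain of a collagen. RefSeq lists 44 of them. The table of HaCaT RNA sequencing used here held rows for 41 among its 17131 genes. COL6A5, COL9A1 and COL19A1 were not analysed here. All 41 had at least 1 estimated read in some library, 16 reached a mean level of 1 TPM (transcripts scaled to a fixed total per library, corrected for length), 7 reached 10 TPM, and 21 had enough reads for a test between the groups.

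HaCaT is an established, spontaneously immortalised line of human keratinocytes, the main cells of the epidermis. All 8 libraries were labelled wild type and, by the design, came from cells given M5, in which 5 cytokines (oncostatin M, TNF-α, IL-1α, IL-17A and IL-22, each at 10 ng/mL for 24 h) are combined to put keratinocytes in a psoriasis-like state. According to the methods, 1 of the groups was also given OTS514 (10 nM, from 12 h before M5), which inhibits the kinase TOPK, the product of PBK. The 4 libraries titled M5_O5 would by their titles be those with OTS514, but the treatment entered for them is none, whereas the 4 libraries titled M5 carry the entry TOPK inhibitor. Each direction is therefore given between titles. A single cell line was used, and no culture without M5 was analysed here. Since nothing in the labels says that the libraries came from separate cultures, p-values measure the spread between these libraries, which may be technical.

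A collagen is made of a triple helix of chains, and many types form only when chains of different genes join. Basal keratinocytes make a particular set. Type XVII spans the cell membrane in hemidesmosomes, type IV builds the sheet of the basement membrane, and type VII forms the anchoring fibrils that tie that sheet to the dermis. The fibril-forming types I, III and V are mainly products of dermal fibroblasts. Inside the cell, chains are hydroxylated, glycosylated, folded and loaded into large transport carriers, and outside it propeptides are cut off and fibrils are cross-linked.

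Total estimated counts ran from 16113015 to 16922693 in the M5_O5 libraries and from 13708055 to 16847599 in the M5 libraries, where M5 replicate 1 was the lowest. The 10 keratinocyte markers were all tested, and their summed level was 13323 to 15614 TPM in M5_O5 and 15034 to 16789 TPM in M5. Of 10 fibroblast markers, 5 had enough reads to be tested. These were FBLN1 (359 to 448 reads), ACTA2 (22 to 55), S100A4 (27 to 47), PDGFRA (13 to 33) and LUM (8 to 23). Among the others, PDGFRB, THY1 and TWIST1 had 0 to 2 reads in every library, while DCN and VIM reached 7 and 10 reads in a library. PBK had 3.60, 2.93, 2.25 and 3.15 CPM (counts scaled by the TMM-adjusted library size, not corrected for length) in M5_O5 replicates 1 to 4 and 2.63, 0.588, 0.987 and 0.685 CPM in the M5 replicates, a log2 fold change of 1.32 (SE 0.34, edgeR adjusted p = 0.00738). An inhibitor of the kinase acts on the protein, so this level does not check the labels.

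Promoter sequence is shown for the 3 collagen genes with the highest levels, all of which differed between the groups, and for the pair of type IV genes that lie head to head. Sequences are the RefSeq windows of GRCh38.p14, which cover 250 bases before the transcript start to 50 after it and were found for 30 of the 41 genes. Only bases before the start are printed. In COL17A1 (chr10:104085881-104086130, minus strand) the capitals mark TATAAA, 206 bases before the start. In COL7A1 (chr3:48595330-48595579, minus strand) they mark 2 matches to TTCNNNGAA, the letters of a STAT site, 162 and 152 bases before the start, and TATAAA read on the other strand at 124. In COL12A1 (chr6:75206054-75206303, minus strand) they mark CATTCC, the letters of a TEAD site, on the other strand at 167. The last sequence is the stretch of 126 bases between the starts of COL4A1 and COL4A2 (chr13:110307158-110307283, shown on the plus strand, along which COL4A2 is read), with CCAAT in capitals. Matches on either strand to CCAAT in COL17A1, and to the GC box GGGCGG in COL7A1, COL12A1 and this stretch, were left in lower case.
COL17A1: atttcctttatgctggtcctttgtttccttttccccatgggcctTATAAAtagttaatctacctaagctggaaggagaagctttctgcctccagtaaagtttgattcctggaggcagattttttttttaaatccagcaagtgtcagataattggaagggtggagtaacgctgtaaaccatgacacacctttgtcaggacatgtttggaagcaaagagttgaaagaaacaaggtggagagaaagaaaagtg
COL7A1: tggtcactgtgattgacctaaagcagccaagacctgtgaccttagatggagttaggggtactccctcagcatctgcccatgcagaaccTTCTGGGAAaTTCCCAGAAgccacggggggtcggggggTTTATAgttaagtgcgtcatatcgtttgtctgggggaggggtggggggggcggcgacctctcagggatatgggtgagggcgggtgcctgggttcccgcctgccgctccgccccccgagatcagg
COL12A1: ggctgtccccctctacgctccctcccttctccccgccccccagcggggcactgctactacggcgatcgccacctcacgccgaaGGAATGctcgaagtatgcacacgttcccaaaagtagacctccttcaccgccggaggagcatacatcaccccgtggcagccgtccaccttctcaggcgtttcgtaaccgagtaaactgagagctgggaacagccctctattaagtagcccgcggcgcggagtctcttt
COL4A1 to COL4A2: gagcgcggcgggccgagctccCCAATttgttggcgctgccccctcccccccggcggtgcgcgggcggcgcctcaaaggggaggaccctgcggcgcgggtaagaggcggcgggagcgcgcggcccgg

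The windows of COL4A1 and COL4A2 shared 226 bases, read in opposite directions. Searched on both strands, TATAAA was in 19.5% of the 41 collagen windows and in 11.5% of all 35116 windows. The GC box GGGCGG was in 58.5% against 45%, and CCAAT was in 31.7% against 34.6%. TGANTCA, the letters of an AP-1 site, was in 2.44% against 7.71%. TTCNNNGAA was in 4.88% against 7.66%, and CATTCC was in 7.32% against 14%. Some genes have more than 1 window, and a match describes letters only.

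Levels of different genes were compared in TPM. COL17A1, the transmembrane collagen of hemidesmosomes, stood at 902 TPM over the 8 libraries, above 98.9% of all tested genes, and made up 72.4% of collagen TPM. COL7A1, the chain of anchoring fibrils, followed at 151 TPM. COL12A1, a collagen that decorates the surface of fibrils, was at 79.7 TPM. Together these 3 genes held 88.9% to 92.4% of collagen TPM in each library. The fibrillar chain COL27A1 (30.3 TPM), the fibril-associated chain COL16A1 (14.3 TPM), COL4A2 (11.9 TPM) and the type I chain COL1A1 (11.3 TPM) were the others at 10 TPM or more.

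The first 4 of these genes, in the order given, did not overlap with the next gene in any pair of libraries. From COL16A1 downward neighbouring genes overlapped, except that every library had more COL4A1 (4.30 TPM) than any had COL6A1 (2.47 TPM). COL5A1 at 9.29, COL18A1 at 8.53, COL4A5 at 5.91, COL9A3 at 5.71, COL8A1 at 2.25, COL5A3 at 1.62 and COL9A2 at 1.32 TPM completed the 16 expressed genes. COL13A1 (0.948 TPM), COL22A1 (0.635 TPM), COL8A2 (0.569 TPM), COL4A6 (0.422 TPM) and COL4A4 (0.311 TPM) were tested but lay under 1 TPM.

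**Figure D1:**
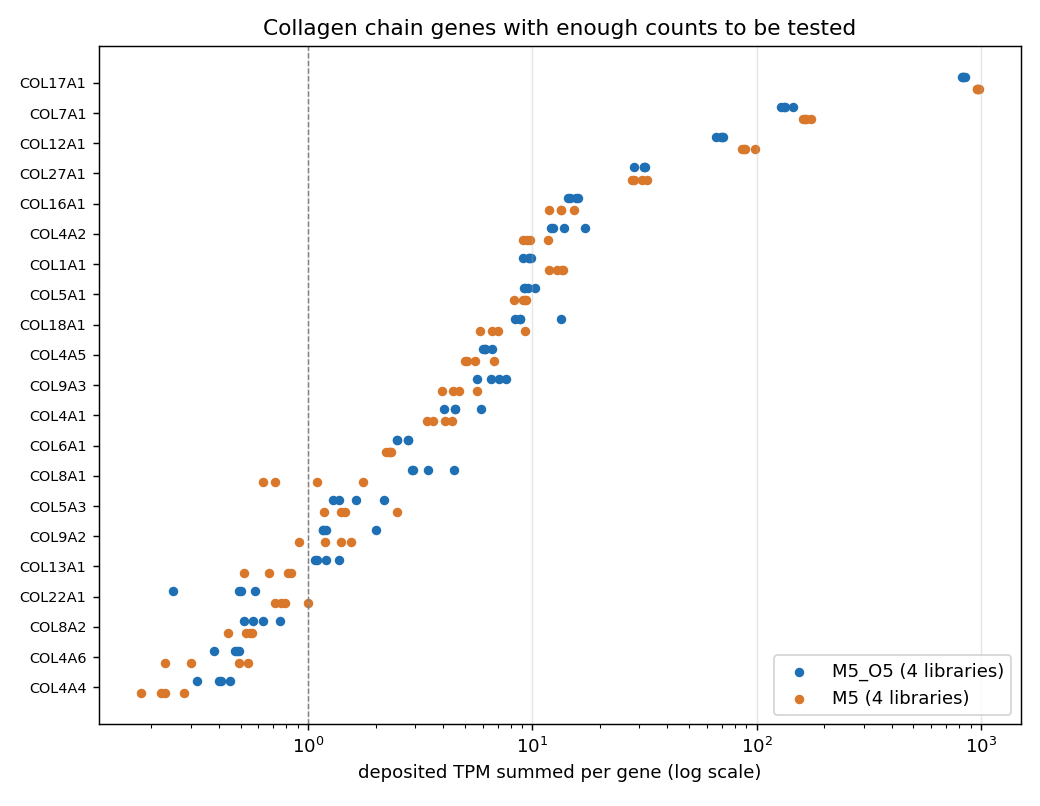
Level of each tested collagen gene in each library, in TPM summed over the transcripts of a gene, on a log scale. Points are single libraries (M5_O5 above, M5 below on each line) and the dashed line is 1 TPM; COL17A1, COL7A1 and COL12A1 stand apart at the top and are lower in all 4 M5_O5 libraries.

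The summed level of all collagen genes was 1202, 1136, 1150 and 1155 TPM in M5_O5 replicates 1 to 4 and 1360, 1307, 1313 and 1339 TPM in the M5 replicates. The M5_O5 libraries were all below the M5 libraries. COL17A1 held 70.9% to 72.8% of that sum in M5_O5 and 71.3% to 73.3% in M5.

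Between the groups, the collagen genes moved both ways. The 3 most abundant (COL17A1, COL7A1 and COL12A1) were lower in M5_O5, as were COL1A1 and the low-level COL22A1, and 6 others of moderate or low level were higher (COL8A1, COL4A4, COL13A1, COL9A3, COL4A2 and COL18A1). Of the 21 tested genes, 6 were higher, 5 were lower and 10 did not pass at an adjusted p under 0.05 (edgeR's quasi-likelihood test, adjusted over all 12434 genes tested). Without M5 replicate 3, or with loess scaling, 2 were higher (COL8A1 and COL4A2). Among all genes tested, 19.5% were higher and 17.6% lower, which sets the collagen counts of 28.6% and 23.8% against a background in which 37.1% of genes passed. The median log2 fold change was 0.08 for the collagen genes and 0.01 for all genes. COL8A1 alone also differed by at least 2-fold, which 3.20% of all tested genes did (2.87% higher and 0.330% lower). In CPM the groups did not overlap for 10 of the 21 genes, 5 in each direction, beside 33.6% of all genes. Each tested collagen gene had at least 13 reads in every library, so none entered the test through 1 group only.

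Level and direction went together across the whole table too. At 50 TPM or more, 32.9% of 2435 genes were lower in M5_O5 and 13.1% higher, and the 3 collagen genes there were all lower. From 1 to 50 TPM the shares were 15.1% lower and 20.8% higher, with 1 collagen gene lower and 4 higher of 13. Under 1 TPM they were 2.57% and 23.3%, with 1 lower and 2 higher of 5. The part of this trend in the collagen result was not tested beyond the loess scaling, under which COL17A1 kept its call at a log2 fold change of -0.12.

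**Figure D2:**
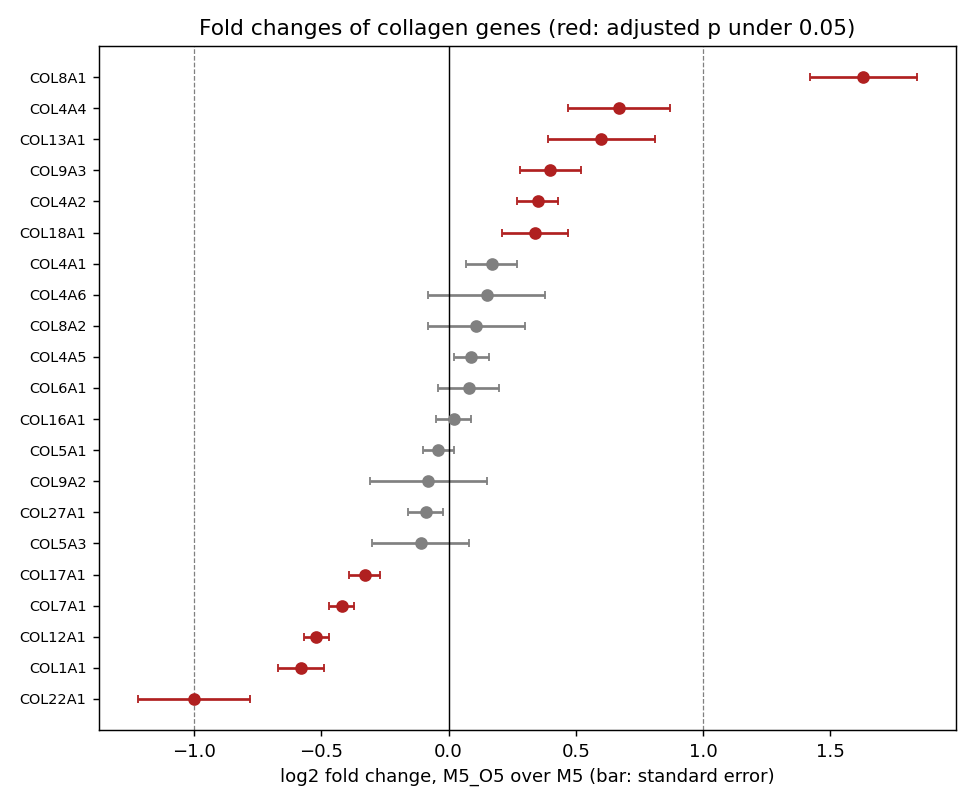
Log2 fold change of each tested collagen gene, M5_O5 over M5, with its standard error from edgeR; red marks an adjusted p under 0.05 and dashed lines mark a fold change of 2. COL8A1 at 1.63 lies past the line, COL22A1, with a fold change of 0.501, lies at the opposite line, and the 10 grey genes lie between -0.11 and 0.17.

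The hemidesmosome and anchoring fibril collagens were lower in M5_O5. COL17A1 was at 2632, 2806, 2762 and 2655 CPM in M5_O5 and at 3125, 3599, 3462 and 3501 CPM in M5. The means were 2714 ± 83.8 and 3422 ± 206 CPM (SD, n = 4), and the fitted level in M5_O5 was 79.3% of that in M5, with no overlap between the groups (log2 fold change -0.33, SE 0.06, edgeR adjusted p = 0.00102). COL7A1 was at 755, 737, 731 and 714 CPM in M5_O5 and at 944, 1015, 987 and 998 CPM in M5. All 4 M5_O5 libraries lay below all M5 libraries, at a fitted 74.5% of the M5 level (log2 fold change -0.42, SE 0.05, edgeR adjusted p = 3.81e-05). Their drop was small in size and larger than the spread between libraries. For each of the 10 genes with separated groups, p was 0.0286 in a two-sided exact permutation test, which cannot go lower with 4 against 4 libraries. Any gene with separated groups gets this value, so it adds nothing to the separation.

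COL12A1, the fibril-associated chain, had 403, 432, 395 and 411 CPM in M5_O5 and 596, 606, 572 and 582 CPM in M5. The groups were far apart relative to their spread (410 ± 15.7 against 589 ± 15.2 CPM, SD, n = 4), a log2 fold change of -0.52 (SE 0.05, edgeR adjusted p = 7.43e-06). COL12A1 reads were divided among 4 transcripts that each held at least 5%, and the leading transcript took 38.1% to 53.0% in single libraries, with overlapping groups. COL22A1, a related fibril-associated chain found at tissue junctions, was at 1.69, 1.90, 0.948 and 2.08 CPM in M5_O5 and at 2.63, 3.27, 3.22 and 4.05 CPM in M5. The fitted fold change was 0.501, just short of a 2-fold difference, with separated groups (SE 0.22 on the log2 scale, edgeR adjusted p = 0.00283). Over the other settings its log2 fold change ran from -1.29 with loess scaling to -0.32 on log2(TPM + 1). COL16A1, a minor fibril-associated chain, did not pass. It had 42.9, 42.0, 43.7 and 40.3 CPM in M5_O5 and 44.2, 43.4, 37.2 and 41.6 CPM in M5 (log2 fold change 0.02, edgeR adjusted p = 0.808).

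Of the type IX chains, COL9A3 was higher, with 9.71, 7.87, 9.72 and 8.56 CPM in M5_O5 and 7.52, 6.86, 5.86 and 6.91 CPM in M5. The groups did not overlap (log2 fold change 0.40, SE 0.12, edgeR adjusted p = 0.0135), but without M5 replicate 3 the adjusted p was 0.0536. Its partner COL9A2 overlapped between groups (log2 fold change -0.08, edgeR adjusted p = 0.799). COL9A3 shares its locus with TCFL5, and whether the counting used strand is not stated, so reads of overlapping genes may not be told apart. The TPM ratio of COL9A3 to COL9A2 was 5.04 ± 0.947 in M5_O5 and 3.94 ± 1.54 in M5 (SD, n = 4), with overlapping groups.

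Among fibril-forming chains 4 were tested, 1 was lower and none was higher, since COL5A1, COL5A3 and COL27A1 did not pass. COL1A1, the main chain of type I collagen, was at 31.6, 34.8, 34.4 and 30.4 CPM in M5_O5 and at 40.5, 54.5, 51.4 and 48.9 CPM in M5. The groups did not overlap, and the fitted M5_O5 level was 67.1% of that in M5 (log2 fold change -0.58, SE 0.09, edgeR adjusted p = 0.000168). COL27A1, a fibrillar chain of cartilage and epithelia, had 108, 118, 129 and 120 CPM in M5_O5 and 117, 131, 121 and 135 CPM in M5, which overlap (log2 fold change -0.09, edgeR adjusted p = 0.308). The type V chains were as close, with COL5A1 at 47.1 ± 1.04 and 48.3 ± 2.05 CPM (log2 fold change -0.04, edgeR adjusted p = 0.619) and COL5A3 at 5.78 ± 1.17 and 6.26 ± 1.82 CPM (SD, n = 4).

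Some partner chains of these fibrillar collagens, COL1A2 and COL5A2, were near 0. COL1A1 stood at 11.3 TPM, while COL1A2, which joins it in type I collagen, was at 0.0750 TPM. COL5A1 stood at 9.29 TPM and COL5A2 at 0.0688 TPM, while COL5A3, also a type V chain, was at 1.62 TPM. In the same way COL6A1 was at 2.47 TPM beside 0.0325 TPM for COL6A2 and 0.0275 TPM for COL6A3, the other chains of type VI beaded filaments. COL1A1, COL5A1 and COL6A1 were thus each measured beside little message of these partner chains.

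The basement membrane chains of type IV all lay above 0 in log2 fold change, and 2 of the 5 tested passed. COL4A2 had 60.9, 47.7, 52.9 and 45.5 CPM in M5_O5 and 43.4, 39.5, 39.4 and 40.6 CPM in M5. All M5_O5 libraries exceeded all M5 libraries (log2 fold change 0.35, SE 0.08, edgeR adjusted p = 0.00524). COL4A1, which joins COL4A2 in the commonest type IV molecule and starts 126 bases away from it, had 21.4, 16.1, 17.6 and 16.9 CPM in M5_O5 and 16.5, 15.0, 15.3 and 17.4 CPM in M5, which overlap (log2 fold change 0.17, SE 0.10, edgeR adjusted p = 0.189). The TPM ratio of COL4A2 to COL4A1 was 2.88, 3.01, 3.06 and 2.73 in M5_O5 and 2.67, 2.68, 2.64 and 2.39 in M5. These ratios were not tested, and they did not overlap between the groups. COL4A2 also overlaps 2 antisense genes, COL4A2-AS1 and COL4A2-AS2.

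COL4A4, a chain better known from the kidney filter, was at 1.51, 1.61, 1.84 and 1.72 CPM in M5_O5 and at 1.24, 0.849, 0.987 and 1.12 CPM in M5. The groups did not overlap (log2 fold change 0.67, SE 0.20, edgeR adjusted p = 0.0187). The edgeR adjusted p rose to 0.0517 without M5_O5 replicate 3, to 0.0646 without M5 replicate 2 and to 0.0523 without M5 replicate 3. With all libraries kept, it was 0.0748 by DESeq2, and by limma 0.164 with loess scaling and 0.0554 on log2(TPM + 1). COL4A4 overlaps RHBDD1. The X-linked chains COL4A5 (23.3 ± 0.443 and 21.9 ± 1.91 CPM, edgeR adjusted p = 0.36) and COL4A6 (1.62 ± 0.171 and 1.48 ± 0.463 CPM, edgeR adjusted p = 0.643) did not pass.

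COL8A1, a chain of the short network collagen type VIII known from vessel walls and the cornea, differed the most. It had 13.7, 9.76, 11.3 and 9.21 CPM in M5_O5 and 5.55, 2.61, 2.24 and 3.86 CPM in M5. The lowest M5_O5 library was above the highest M5 library, and the means were 11.0 ± 2.02 and 3.56 ± 1.49 CPM (SD, n = 4, fitted fold change 3.11, log2 fold change 1.63, SE 0.21, edgeR adjusted p = 6.28e-05). Without M5 replicate 1, the M5 library with most COL8A1, the log2 fold change was 1.91. COL8A2, the partner chain, overlapped between groups at 1.63 ± 0.244 and 1.51 ± 0.144 CPM (edgeR adjusted p = 0.707).

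An endothelial marker moved in the same direction as COL8A1. CDH5, the cadherin of vessel lining, was singled out after its value was seen and had 48, 42, 57 and 53 reads in M5_O5 and 6, 3, 7 and 3 reads in M5, with separated groups (log2 fold change 3.18, SE 0.28, edgeR adjusted p = 2.57e-06). Of the 7 endothelial markers 5 were in the table, and CDH5 was the only one tested. PECAM1, TEK and CLDN5 had 0 to 1 reads in every library, and VWF had 1 to 12 with overlapping groups. The summed level of the list was 1.14 to 1.61 TPM in M5_O5 and at most 0.280 TPM in M5. CDH5 held most reads of the list in each M5_O5 library, so this sum adds little to CDH5 itself. The part of CDH5 or of the list in the COL8A1 result was not tested.

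COL13A1, a transmembrane collagen of cell adhesions, had 1.86, 1.84, 1.78 and 2.20 CPM in M5_O5 and 1.09, 1.50, 0.921 and 1.50 CPM in M5. The groups did not overlap (log2 fold change 0.60, SE 0.21, edgeR adjusted p = 0.034), but the call depended on the method and on single libraries. With all libraries kept, the adjusted p was 0.0913 by DESeq2, 0.258 by limma with loess scaling and 0.0501 by edgeR with no filter. Leaving out each M5_O5 replicate in turn gave adjusted p-values of 0.0525, 0.057, 0.0507 and 0.0952, and leaving out M5 replicates 1 and 3 gave 0.0601 and 0.111. The 2 transmembrane collagens that were tested, COL17A1 and COL13A1, thus lay on opposite sides of 0.

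COL18A1, the basement membrane collagen that releases endostatin, was at 40.1, 27.5, 28.3 and 27.0 CPM in M5_O5 and at 28.8, 21.1, 23.1 and 24.4 CPM in M5. The first library of each group was the highest and the groups overlapped (log2 fold change 0.34, SE 0.13, edgeR adjusted p = 0.0467; two-sided exact permutation p = 0.114). Without M5_O5 replicate 1 the log2 fold change was 0.18 and the adjusted p 0.141, and without M5 replicates 2, 3 and 4 the adjusted p was 0.128, 0.114 and 0.0936. With all libraries kept, limma gave 0.0629 with loess scaling and 0.0732 and 0.0698 on log2(TPM + 1) and log2(TPM + 0.1). COL18A1 overlaps SLC19A1 and antisense genes. COL6A1, the expressed type VI chain, had 6.29 ± 0.657 CPM in M5_O5 and 5.96 ± 0.413 CPM in M5 (SD, n = 4, edgeR adjusted p = 0.64).

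**Figure D3:**
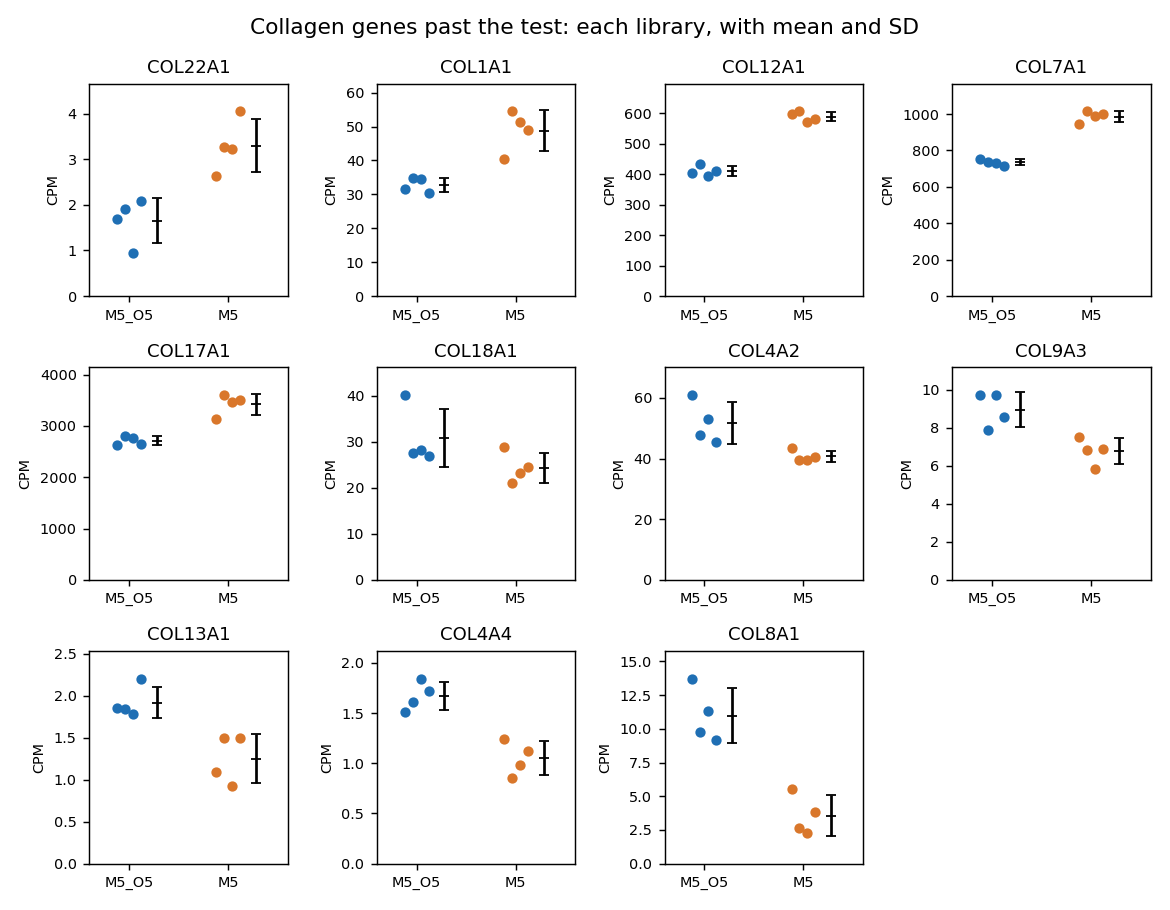
CPM of the 11 collagen genes that passed the test, from the lowest to the highest log2 fold change, with each library as a point and the mean with its SD (n = 4) beside it; every y axis starts at 0. The groups do not overlap in 10 panels, and in the COL18A1 panel M5_O5 replicate 1 at 40.1 CPM stands above the rest.

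In 9 of these 11 genes, M5 replicate 1 was the M5 library closest to the M5_O5 mean, and it was also the library with the lowest total count. All 11 genes kept their direction under the 17 other settings, which leave out each library in turn among others. The calls of COL17A1, COL7A1, COL12A1, COL1A1, COL22A1, COL8A1 and COL4A2 held in all of them. Those of COL9A3, COL4A4, COL18A1 and COL13A1 held in 15, 11, 10 and 8 of 17.

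The other 20 collagen genes had at most 23 reads in a library (COL11A2, some of whose rows are further placements of the same transcript) and were not tested. COL10A1, a chain of hypertrophic cartilage, had 3 to 16 reads. COL15A1, COL2A1, COL4A3, COL6A6, COL21A1, COL20A1, COL6A2, COL23A1 and COL5A2 had 0 to 7 reads in any library. COL11A1, COL14A1, COL24A1, COL25A1, COL26A1 and COL28A1 had no more than 4 reads, and most of their libraries had 0. A count of 0 allows up to 3 reads, or 0.172 to 0.219 CPM in these libraries, which covers counting error only.

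Of these 20, the groups did not overlap for 5 genes, COL1A2, COL3A1, COL5A2, COL6A3 and COL23A1, which were picked out after their counts were seen, beside 5.01% of the 4151 genes that had at least 1 read and were not tested. COL1A2 had 0 reads in all 4 M5_O5 libraries and 1, 5, 10 and 14 reads in M5. Set against a floor of 3 reads over the M5_O5 group, and taking the 30 M5 reads as exact, it was at least 11.3-fold lower in M5_O5. The edgeR adjusted p was 0.000819 in the fit with no filter on low counts. COL3A1, the chain of type III collagen, had 0 reads in M5_O5 and 2, 5, 5 and 5 reads in M5. It was at least 6.42-fold lower against the same floor, with its M5 reads also taken as exact (adjusted p = 0.00138 in that edgeR fit). Both are genes of fibroblasts rather than of epidermis, and their counts are few. They were picked by these same counts, so the p-values are no separate support.

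COL6A3 had 1, 0, 0 and 1 reads in M5_O5 and 6, 4, 5 and 2 reads in M5 (adjusted p = 0.00876 in the unfiltered edgeR fit). COL5A2 had 3, 3, 2 and 3 reads in M5_O5 and 7, 5, 5 and 4 reads in M5 (adjusted p = 0.12 in that edgeR fit). COL23A1 had 1, 1, 3 and 1 reads in M5_O5 and 0 in all M5 libraries (adjusted p = 0.0627). The fibroblast marker VIM, the intermediate filament of mesenchymal cells, was picked out after its counts were seen and was not tested. It had 1, 0, 1 and 0 reads in M5_O5 and 3, 2, 10 and 10 in M5. The tested fibroblast markers lay on both sides of 0 in log2 fold change. LUM (-0.77), S100A4 (-0.34) and FBLN1 (-0.30) lay below 0, and ACTA2 (0.51) and PDGFRA (0.09) lay above it. Over the whole fibroblast list the summed level was 36.4 to 42.1 TPM in M5_O5 and 35.1 to 50.9 TPM in M5, 1 of the 5 tested markers passed (FBLN1, lower), and the part of such cells in the low collagen counts was not tested. In bulk RNA, fewer cells of a type and less RNA per cell cannot be told apart.

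**Figure D4:**
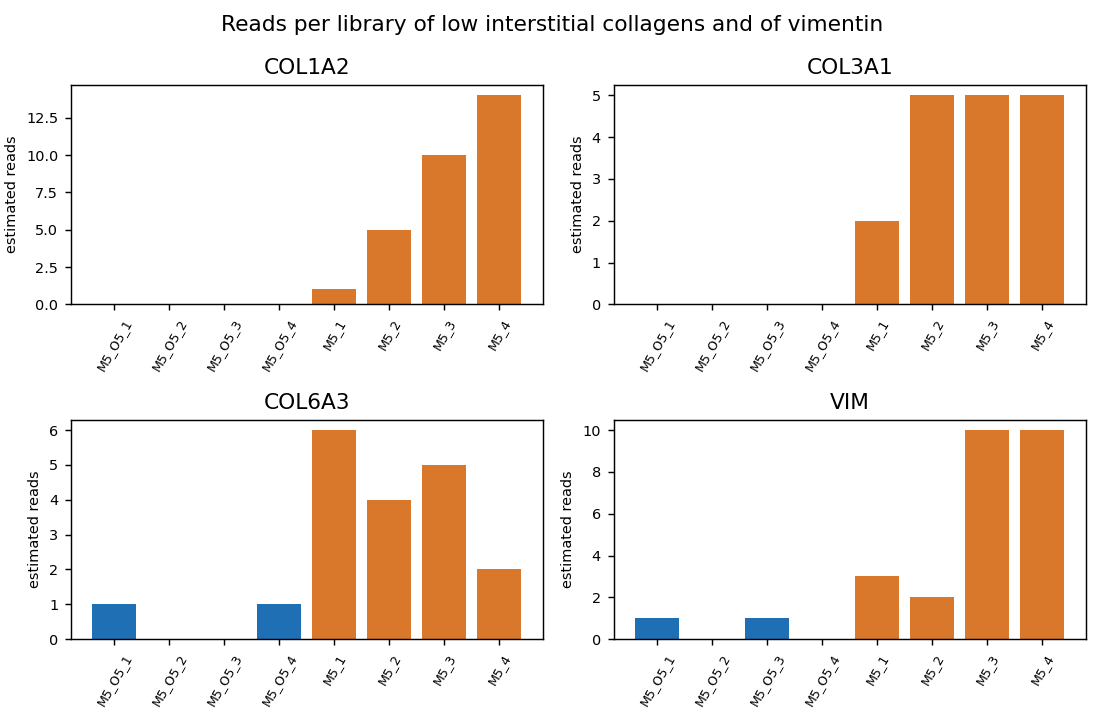
Estimated reads of COL1A2, COL3A1, COL6A3 and the fibroblast marker VIM in each library (bars; blue M5_O5, orange M5), each on an axis from 0. COL1A2 and COL3A1 have 0 reads in the 4 M5_O5 libraries and up to 14 and 5 in M5, and VIM has at most 1 read in M5_O5 and 2 to 10 in M5.

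The genes that work on collagens were read from 9 lists, which held 89 tested genes in all. Of these 21 were higher in M5_O5 (23.6%), 32 were lower (36.0%) and 36 did not pass, beside 19.5% and 17.6% of all genes, with a median log2 fold change of -0.01. That split turned with the scaling, to 31 higher and 22 lower with library size only, 26 and 25 with loess, 24 and 20 on log2(TPM + 1) and 25 and 20 on log2(TPM + 0.1). The lists for modification inside the cell lay on the higher side. Those for cell attachment, collagen breakdown and the TGF-beta pathway, its inhibitors included, lay on the lower side. All lists were chosen with earlier results of these data known. They were not set against genes of like level, although 32.9% of all genes at 50 TPM or more were lower.

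Enzymes that hydroxylate and glycosylate collagen chains were higher or did not pass, 6 and 5 of 11 tested, with a median of 0.28. Among all genes tested 19.5% were higher. PLOD2, a lysyl hydroxylase with a log2 fold change of -0.20, did not pass here but passed as lower in 5 of the 17 other settings. P3H4, a member of the lysyl hydroxylation complex, rose by 0.69 on the log2 scale (edgeR adjusted p = 0.00237). The prolyl 3-hydroxylases P3H2, best known for acting on type IV collagen, and P3H1 rose by 0.61 and 0.57 (edgeR adjusted p = 1.67e-05 and 0.000448). COLGALT1, which adds galactose to hydroxylysine, was at 68.5 ± 4.82 CPM in M5_O5 and 50.3 ± 2.31 CPM in M5 (SD, n = 4, log2 fold change 0.45). The prolyl 4-hydroxylase subunits P4HA1 (log2 fold change 0.06) and P4HB (0.00) did not pass.

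Of 14 tested genes for folding and secretion 4 were higher, 1 was lower and 9 did not pass, with a median of 0.14, while 7 were higher with loess scaling and 9 with library size only. The higher ones included MIA2, a partner of the collagen export receptor at endoplasmic reticulum exit sites (log2 fold change 0.30), and the chaperones PDIA3 (0.27) and HSP90B1 (0.22), which serve many other proteins. SEC31A, a coat protein of transport vesicles, was lower (-0.25), a call lost with library size only and on the TPM scales. SERPINH1, the collagen-specific chaperone HSP47, did not pass (log2 fold change 0.02, edgeR adjusted p = 0.823).

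Outside the cell, the 8 tested genes for propeptide cleavage and cross-linking divided, 2 higher and 2 lower, around a median of 0.04 (-0.07 with loess scaling). TGM2, a transglutaminase, was at 205 ± 15.7 CPM in M5_O5 and 398 ± 69.0 CPM in M5 (SD, n = 4, log2 fold change -0.96, edgeR adjusted p = 1.44e-05). BMP1, the proteinase that removes the C-propeptide and that cuts type VII collagen, was lower too (log2 fold change -0.48, edgeR adjusted p = 0.00011). The related proteinase TLL2 (0.24) and the lysyl oxidase LOXL2 (0.22) were higher, and each of these calls was lost when M5_O5 replicate 2 or M5 replicate 1, 3 or 4 was left out, besides M5_O5 replicate 1 for TLL2 and M5_O5 replicate 3 for LOXL2. Over all settings their adjusted p-values, from edgeR or the other tools, reached 0.156 and 0.103.

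Hemidesmosome and anchoring partners, which share attachment structures with types XVII and VII or link to them, had 7 of 10 tested genes lower, 0 higher and a median of -0.36. Among all genes tested 17.6% were lower, and at 50 TPM or more 32.9% were. The laminin chain LAMA3 was at 1756 ± 138 CPM in M5_O5 and 2440 ± 203 CPM in M5 (SD, n = 4, log2 fold change -0.47, edgeR adjusted p = 0.000293). The hemidesmosomal integrin ITGB4 (-0.45) and the basal keratin KRT14 (-0.40) were lower as well, in the same direction as COL17A1 and COL7A1. With library size only 6 were lower and 1 was higher, and with loess scaling 5 were lower, 1 was higher and KRT14 no longer passed. The 10 keratinocyte markers, which share KRT5 and KRT14 with this list, had 7 lower, 0 higher and a median of -0.29, with 4 lower with library size only and 1 lower with loess scaling. Their part in the hemidesmosome result was not tested.

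Collagen receptors had 4 lower and 1 higher of 10 tested, with a median of -0.23, beside 17.6% lower among all genes. With library size only 3 were lower and 2 higher, and on both TPM scales 2 were lower and 2 higher. ITGA2, the alpha chain of the main collagen-binding integrin of keratinocytes, was at 1412 ± 83.8 CPM in M5_O5 and 1963 ± 66.1 CPM in M5 (SD, n = 4, log2 fold change -0.48). ITGB1, its beta chain (-0.31), and ITGA3, which mainly binds laminins (-0.42), were lower too, the call of ITGB1 being lost with loess scaling and on the TPM scales. ITGA10, another collagen-binding alpha chain, was higher (log2 fold change 1.13, edgeR adjusted p = 0.00382) from 20 to 30 reads in M5_O5 and 8 to 11 in M5.

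Collagenases and gelatinases had 5 lower and 1 higher of 8 tested, with a median of -0.29. Among all genes tested 17.6% were lower, and at 50 TPM or more 32.9% were. With library size only, with loess scaling and on both TPM scales, 4 were lower and 1 was higher. The gelatinase MMP9, which cuts type IV collagen, was at 30.0 ± 2.20 CPM in M5_O5 and 118 ± 21.6 CPM in M5 (SD, n = 4, log2 fold change -1.98, edgeR adjusted p = 7.79e-08). The interstitial collagenases MMP1 (-1.21) and MMP13 (-0.76) were lower, while MMP2, the other gelatinase, was higher at 26.7 ± 1.97 against 12.5 ± 2.37 CPM (SD, n = 4, log2 fold change 1.10).

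Basement membrane partners of type IV collagen had 4 higher and 4 lower of 9 tested, with a median of 0.01, and 2 lower with library size only or loess scaling. NID2, a nidogen that links laminin to type IV, had 22 to 51 reads in M5_O5 and 7 to 10 in M5 (log2 fold change 1.86, edgeR adjusted p = 0.000536). FRAS1, a protein found below the basement membrane that helps attach the skin, was higher (1.04), while the proteoglycan perlecan, HSPG2 (-0.44), and the laminin chain LAMA5 (-0.37) were lower. Of the interstitial partners 2 of 7 tested were higher and 1 was lower, with a median of 0.22. Fibronectin, FN1 (0.47), and TGFBI (0.32), which bind collagens, were higher, and FBLN1 was lower (-0.30), a call lost on the TPM scales.

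The TGF-beta pathway, which is known to raise transcription of many collagen genes, had 8 lower and 1 higher of 12 tested genes. Its median was -0.23, and among all genes tested 17.6% were lower. The feedback inhibitor SMAD7 was at 37.1 ± 2.16 CPM in M5_O5 and 59.2 ± 2.70 CPM in M5 (SD, n = 4, log2 fold change -0.67, edgeR adjusted p = 4.14e-06). SKIL, another inhibitor, was lower too (-0.48), and the matricellular gene CCN1 was higher (0.69). The list holds inhibitors as well as signal carriers, so its counts give no direction of signalling. With library size only, 4 were lower and 2 were higher. With loess scaling 5 were lower and 1 was higher, and on both TPM scales 4 were lower and 1 was higher.

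**Figure D5:**
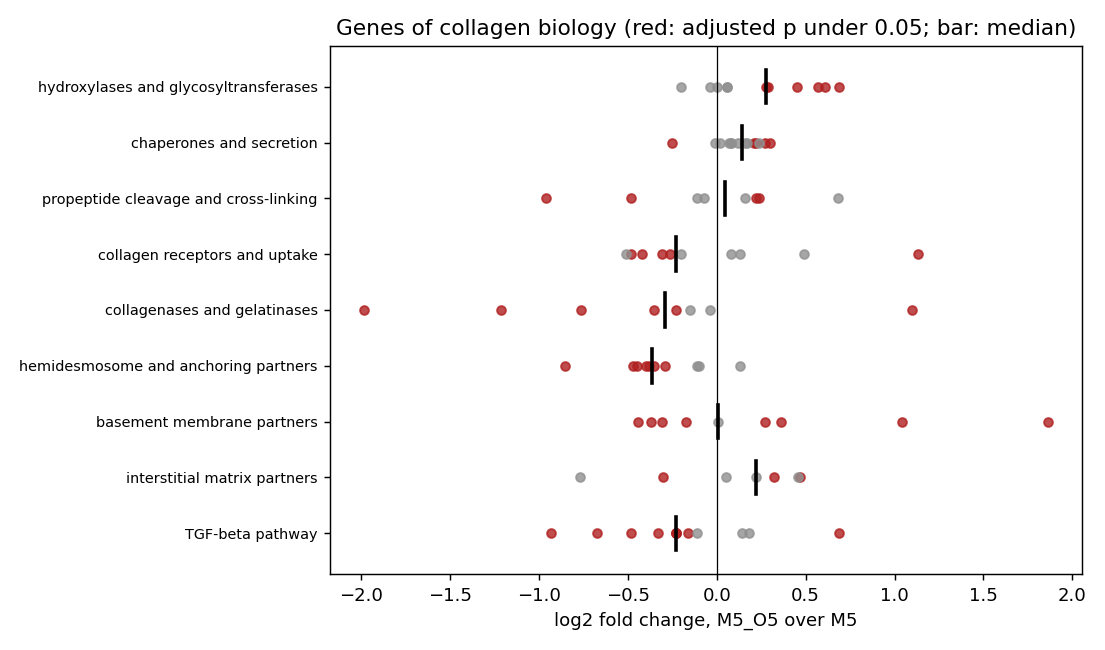
Log2 fold change (M5_O5 over M5) of each tested gene in the 9 lists of collagen biology; red points have an edgeR adjusted p under 0.05 and the black bar is the median of the list. The hydroxylases and glycosyltransferases centre on 0.28 and the hemidesmosome and anchoring partners on -0.36.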

How the data were processed

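RNA sequencing of 8 HaCaT libraries, 4 titled M5_O5 and 4 titled M5, was analysed. The authors deposited an estimated count per RefSeq transcript, not normalized, with TPM and FPKM. Estimated counts were deposited for 86639 transcripts, of which 4181 are further placements, and 53.8% of the values were fractional. TPM, as the authors gave it, sums to the same total in every library. FPKM, likewise given by the authors, entered no result. The methods name HISAT2 and StringTie 2.1.5. The submitters' processing notes name HISAT2 2.1.0, Bowtie2 2.2.5, RSEM 1.2.8 and, for a human line, the mouse build mm10, with no role given, so no gene positions were taken from the files; promoter positions are those of RefSeq on GRCh38.p14. Columns holding the authors' group means were not used.

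Counts were summed to 17131 genes and rounded. Symbols came from RefSeq (GRCh38.p14) and matched 17072 genes, the others holding at most 0.0201% of counts. Genes were filtered with filterByExpr (12434 kept), scaled by TMM and tested with edgeR 4.0.16 (quasi-likelihood, R 4.3.3, Benjamini-Hochberg over all genes tested). CPM uses library sizes scaled by the TMM factors. The biological coefficient of variation was 7.42%. For single genes a two-sided exact permutation test on log2(CPM + 1) was added. Scripts were tested on simulated counts. Replicate pairs differed beyond sampling noise (chi-square per gene of at least 2.02), so all libraries counted.

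Collagen genes at 10 TPM or more or past the test were given per library, with up to 4 genes of each pathway list, those with the largest change, except for genes not reported here. The members and lists were chosen with earlier results of these data known. HSP47, P4HA1, P4HB, PLOD2, CDH5 and VIM were named after their values were seen. As alternatives the groups were compared with DESeq2 1.42.0, with 3 other scalings (DESeq2 size factors, library size only, cyclic loess), without a filter or with at least 10 reads in every library, with limma 3.58.1 on log2(TPM + 1) and log2(TPM + 0.1), with a block for replicate number, and after removing single libraries.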

Additional observations from a re-analysis of the deposited data

Results flagged for a closer look

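In 3 of 42 groups of 4 libraries, taken over the 21 tested collagen genes, 1 library lay far from the other three, where chance alone gives about 2.1 groups (5%). COL18A1 had 40.1 CPM in M5_O5 replicate 1, against 27.0 to 28.3 CPM in the other replicates. COL9A2 had 2.96 CPM in the same library, against 1.78 to 1.90 CPM in the others. COL4A5 had 24.7 CPM in M5 replicate 1, against 20.7 to 21.2 CPM in the others.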

How the results depend on the processing

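The count of 5 lower collagen genes held under every setting except the one with no filter on low counts, which gave 8. Higher collagen genes numbered 2 with loess scaling, and 2 to 5 with single libraries left out, the 2 being without M5 replicate 3. Collagen genes past 2-fold were 2 with DESeq2, with DESeq2 size factors in edgeR and with loess scaling, 4 with no filter, and 1 to 2 with single libraries left out (2 without each of M5_O5 replicates 1, 2 and 4 and M5 replicates 1, 2 and 3). The collagen median log2 fold change (0.076) was 0.193 with library size only, -0.004 with loess, -0.087 with no filter and 0.175 on log2(TPM + 0.1). Leaving out single libraries moved it from 0.016 to 0.076. With library size only, 3858 genes were higher and 1008 lower, and the median of all genes was 0.13. On log2(TPM + 1) and log2(TPM + 0.1), 761 and 768 genes and 20 pathway genes each were lower. The cause of these moves was not tested.

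Of 357 single-gene alternatives, 312 kept direction and call, 24 lost the call (COL13A1, COL18A1, COL4A4 and COL9A3), 1 gained it (COL4A1, 0.29 with library size only, adjusted p = 0.0451 by edgeR) and 20 changed sign, 0 of them past the threshold. COL27A1 changed to 0.03 with library size only, 0.01 with loess and 0.04 on both TPM scales. COL5A1 changed to 0.08, 0.08 and 0.09 with library size only and on the TPM scales, COL5A3 to 0.01, 0.00 and 0.01, and COL9A2 to 0.04, 0.07 and 0.11. With loess, COL4A6 changed to -0.08, COL6A1 to -0.11 and COL8A2 to -0.19. With single libraries left out, COL16A1 ranged from -0.03 (without M5 replicate 3) to 0.05, COL4A6 from -0.02 (without M5 replicate 2) to 0.31, COL5A3 from -0.25 to 0.10 (without M5 replicate 1) and COL9A2 from -0.28 to 0.04 (without M5 replicate 4).

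The replicate numbers gave no clear pairing of the libraries, with correlations of 0.21, 0.10, -0.00 and 0.01 for replicates 1 to 4. Only 2 of 4 M5_O5 and 1 of 4 M5 libraries correlated best with their own number. COL18A1, COL8A1, COL4A2 and COL5A3 were highest in replicate 1 of both groups, whereas COL9A2 was highest there in M5_O5 and lowest there in M5. A link between the libraries numbered 1 was not tested further. With the number as a block, 6 collagen genes were higher and 5 lower, as without it. Of all genes 2703 were higher and 2552 lower with the block, against 2421 and 2192 without it. The edgeR adjusted p of COL18A1 was 0.00193 with the block and 0.0467 without it. The 20 collagen genes that were not tested had too few reads for a test at this depth.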
